A study of Mus musculus with 6 samples.

Results

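*Ifit1*, *Ifit2* and *Ifit3* encode the interferon-induced proteins with tetratricopeptide repeats (IFIT). They were taken by symbol from a table of raw read counts and are 3 of its 37310 genes. The table covers whole adult brain of 12-week-old male C57BL/6 mice, with ribosome-depleted total RNA sequenced as paired 75 bp reads. *Adar1* E861A/E861A *Ifih1*-/- mice (hereafter *Adar1* E861A) carried, on both alleles, the germline substitution E861A, which abolishes the RNA editing activity of ADAR1. *Adar1*+/+ *Ifih1*-/- mice (hereafter *Adar1* WT) were the controls. By their labels both genotypes lacked *Ifih1*, the gene of the double-stranded RNA sensor MDA5, and neither carried an intact *Ifih1* for comparison. Each genotype had 3 libraries, each from an independent animal. The comparison addressed whether transcripts of this antiviral family differ in adult brain when ADAR1 cannot edit and MDA5 is absent. 1 library, *Adar1* E861A replicate 1, stood apart with 439 CPM (counts in a gene for every 1000000 counts of the library) of pituitary hormone transcripts, against at most 3.31 CPM elsewhere.

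IFIT genes are among the most inducible interferon-stimulated genes. Type I interferon acts through its receptor and the kinases JAK1 and TYK2 to assemble the transcription factor complex ISGF3, which binds the interferon-stimulated response element (ISRE) in their promoters, and IRF3 activated by RNA sensors can induce them directly. IFIT1 binds RNA whose 5′ end carries a triphosphate or a cap without ribose methylation and blocks its translation, IFIT2 is required in mice for survival of infection with several neurotropic viruses, and IFIT3 forms complexes with other IFIT proteins.

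The Ifit genes lie in 1 cluster on chromosome 19, and the coordinates here are those of NCBIM37 (mm9). *Ifit2* (ENSMUSG00000045932) spans chr19:34625184-34650909 with 3927 exonic bases, *Ifit3* (ENSMUSG00000074896) spans chr19:34658021-34663221 with 1745, and *Ifit1* (ENSMUSG00000034459) spans chr19:34715361-34724499 with 2656, all on the plus strand. Between *Ifit3* and *Ifit1* the annotation places 3 paralogs. These are *Ifit1bl1* (Gm14446, minus strand), *Ifit3b* (I830012O16Rik, plus strand) and *Ifit1bl2* (2010002M12Rik, minus strand), whose start lies 128 bases from that of *Ifit1*.

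The promoters of the 6 genes were searched for the ISRE core, the word GAAA repeated after 2 bases of any kind (GAAA-NN-GAAA), on both strands, in windows from 250 bases before to 50 bases after each annotated start. For each gene with a match, 1 stretch is shown, with each match in capitals and each sequence read 5′ to 3′ on the strand of its gene. TTTC...TTTC is the same motif read on the opposite strand.
*Ifit1*, chr19:34715265-34715313, plus strand: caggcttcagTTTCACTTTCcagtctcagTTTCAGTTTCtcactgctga
*Ifit3*, chr19:34657853-34657916, plus strand: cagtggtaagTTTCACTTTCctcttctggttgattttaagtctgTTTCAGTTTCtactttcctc
*Ifit3b*, chr19:34682249-34682312, plus strand: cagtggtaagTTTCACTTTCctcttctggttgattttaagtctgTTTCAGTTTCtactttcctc
*Ifit1bl2*, chr19:34715265-34715313, minus strand: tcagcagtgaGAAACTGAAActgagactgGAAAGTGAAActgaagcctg
*Ifit1bl1*, chr19:34676543-34676572, minus strand: actctgtaggTTTCATTTTCtgtaggttgg
The *Ifit1* promoter held 2 matches, with first bases at -86 and -67 from its start. The *Ifit3* promoter held the same pair of 10-base words, at -158 and -124. The printed 64 bases of *Ifit3* and *Ifit3b* were identical, and those of *Ifit1* and *Ifit1bl2* are the 2 strands of the same 49 bases between the divergent starts. *Ifit2* held 0 matches in the windows at both of its annotated starts, and the nearest match lay 2965 bases downstream of the closer one. *Ifit1bl2* held 0 matches at its other annotated start, chr19:34704300, where the nearest match lay 3026 bases upstream. Of 70064 windows of this length in the annotation, 3.64% held at least 1 match and 0.333% held at least 2. With the best window of each of 22380 genes, these shares were 7.94% and 0.728%. A match is a description of the sequence and not a binding site, and the lack of one in *Ifit2* says only that these letters are not in its windows. Whether the matches bear on the levels below was not tested.

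*Ifit1* and *Ifit3* rose in *Adar1* E861A brain, 4.01-fold and 3.11-fold, whereas *Ifit2* was 1.31-fold higher and did not pass the test. In the edgeR quasi-likelihood test with Benjamini-Hochberg adjustment, 2 of the 3 genes had an adjusted p below 0.05 (called from here on) and both were higher, beside 0.410% of the 13649 genes tested that were called higher and 0.506% called in either direction. Each of the 3 genes reached 2 CPM in all 6 libraries, so none entered the test through 1 genotype alone. In whole brain, a higher level per cell and more cells that express a gene cannot be told apart.

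*Ifit1* had 286, 342 and 249 counts in the *Adar1* E861A libraries, in the order of their replicate numbers, against 76, 91 and 94 in *Adar1* WT. These were 9.91, 9.43 and 9.27 CPM against 2.10, 2.39 and 2.63 CPM. The genotypes did not overlap, and the lowest *Adar1* E861A library was 3.52 times the highest *Adar1* WT library. The means were 9.53 ± 0.331 CPM (SD, n = 3) and 2.37 ± 0.266 CPM (SD, n = 3). On the log2 scale the rise was 2.00 ± 0.11 (SE; adjusted p = 5.87e-07), and the 95% interval of the fold ran from 3.39 to 4.76. By p-value *Ifit1* was the gene ranked 2 of 13649, and it had the second largest rise of the genes called past the CPM filter. In the set kept by edgeR's own filter on low counts (filterByExpr), which holds more genes at low counts, its rise ranked 14 among called genes. Its level moved from percentile 2.26 of the genes tested in *Adar1* WT to percentile 28.0 in *Adar1* E861A.

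*Ifit3* had 304, 447 and 354 counts in *Adar1* E861A and 131, 174 and 120 in *Adar1* WT. These were 10.5, 12.3 and 13.2 CPM against 3.62, 4.57 and 3.36 CPM. The lowest *Adar1* E861A library was again above every *Adar1* WT library, by 2.30 times the highest of them. The means of *Ifit3* were 12.0 ± 1.35 CPM (SD, n = 3) and 3.85 ± 0.636 CPM (SD, n = 3). On the log2 scale it rose by 1.64 ± 0.13 (SE; adjusted p = 1.27e-05), and the 95% interval of the fold ran from 2.56 to 3.79. The gene ranked 8 by p-value.

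*Ifit2* had 382, 561 and 408 counts in *Adar1* E861A and 418, 425 and 389 in *Adar1* WT. After division by library totals, which were smaller for 2 of the *Adar1* E861A libraries than for any control, these were 13.2, 15.5 and 15.2 CPM against 11.6, 11.2 and 10.9 CPM. The genotypes did not overlap, but the lowest *Adar1* E861A library was only 1.15 times the highest *Adar1* WT library. The means were 14.6 ± 1.22 CPM (SD, n = 3) and 11.2 ± 0.331 CPM (SD, n = 3). The difference on the log2 scale was 0.39 ± 0.08 (SE; adjusted p = 0.0714), and its 95% interval ran from 0.21 to 0.57. That interval lies below those of *Ifit1* and *Ifit3*. The call depended on the setting: *Ifit2* passed in 6 of 15 alternatives, among them the fit with replicate number as a block (log2 fold change 0.39, adjusted p = 0.0367) and the fit without *Adar1* E861A replicate 1 (0.47, adjusted p = 0.0148). Without *Adar1* E861A replicate 3 its adjusted p was 0.467, the highest of the alternatives. An exact two-sided permutation test of CPM gave p = 0.1 for each of the 3 genes, the smallest value that 3 against 3 libraries allow. Lack of overlap alone is therefore weak evidence, and the share of all tested genes without overlap was not counted. Without *Adar1* E861A replicate 1, the library with pituitary transcripts, the log2 fold changes were 1.99 for *Ifit1*, 0.47 for *Ifit2* and 1.73 for *Ifit3*, and all 3 were called.

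**Figure D1:**
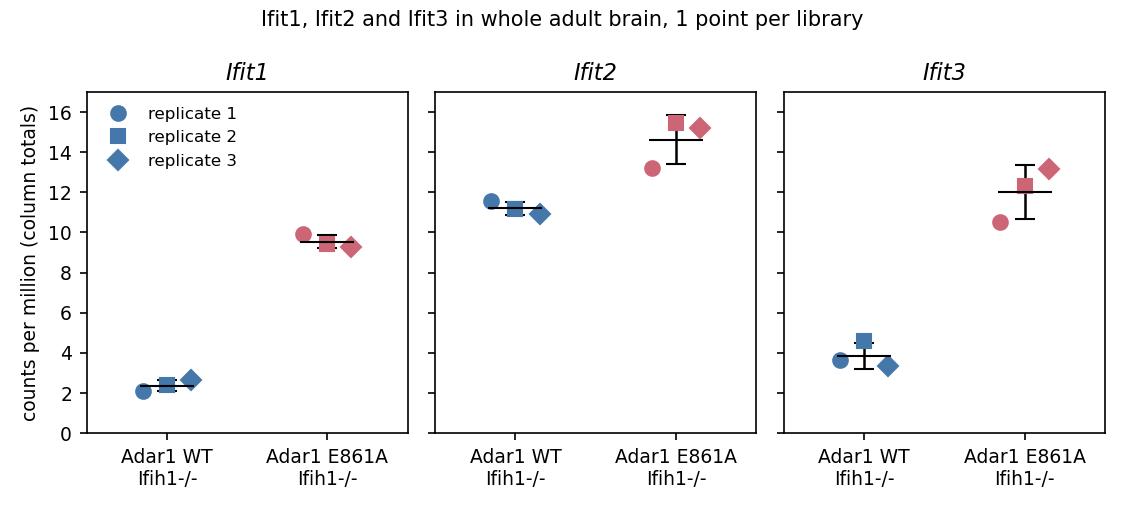
Level in CPM (linear axis from 0) of *Ifit1*, *Ifit2* and *Ifit3* in each library, coloured by genotype, with the replicate number as the marker shape and black bars for mean ± SD (n = 3). No *Adar1* E861A library overlaps an *Adar1* WT library in any panel, with a wide gap for *Ifit1* (at least 9.27 against at most 2.63 CPM) and a narrow one for *Ifit2* (13.2 against 11.6 CPM). The share of all tested genes without overlap was not counted.

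**Figure D2:**
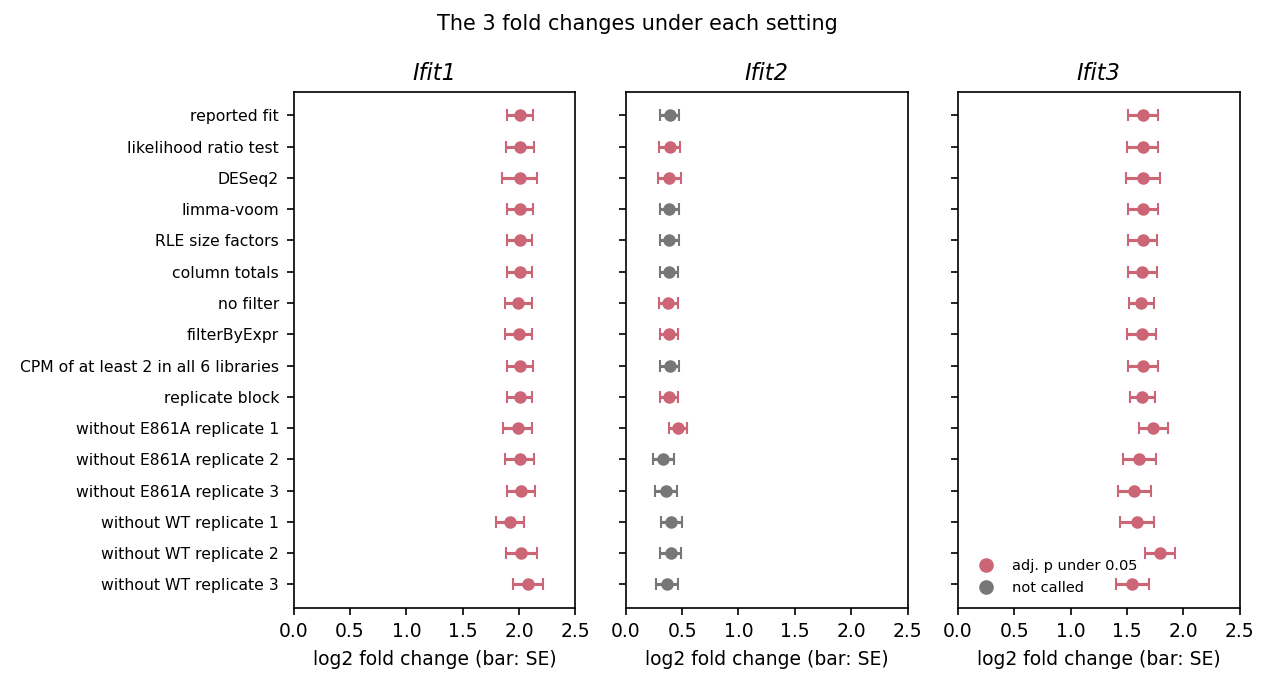
Log2 fold change (horizontal axis, bars SE) of each gene under the reported fit and 15 alternatives, with red points for an adjusted p under 0.05. *Ifit1* and *Ifit3* pass under each of them, whereas *Ifit2* stays between 0.33 and 0.47 and changes colour with the setting.

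The spread between animals was small beside the differences of *Ifit1* and *Ifit3*, and less so beside that of *Ifit2*. The coefficient of variation of CPM within a genotype was 3.47% and 11.2% for *Ifit1*, 8.32% and 2.96% for *Ifit2*, and 11.3% and 16.5% for *Ifit3*, in *Adar1* E861A and *Adar1* WT respectively. Counting alone gives 5.85% and 10.7% at the mean counts of *Ifit1*, 4.71% and 4.93% for *Ifit2*, and 5.21% and 8.40% for *Ifit3*. With 3 animals a genotype, these coefficients are themselves imprecise.

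Levels of different genes were compared per kb of exon. In *Adar1* WT, *Ifit2* stood at 2.85 ± 0.0844 CPM per kb (SD, n = 3), *Ifit3* at 2.21 ± 0.365 and *Ifit1* at 0.894 ± 0.100, without overlap. In *Adar1* E861A, *Ifit3* stood at 6.88 ± 0.775 CPM per kb (SD, n = 3), and *Ifit2* at 3.73 ± 0.310 and *Ifit1* at 3.59 ± 0.125 overlapped each other. The place of *Ifit3* depended on the length used, because part of its exons cannot be told from those of its paralog *Ifit3b*. Per 1000 exonic positions at which a 75-base stretch is unique in the genome, *Adar1* WT held 4.23 ± 0.699 CPM of *Ifit3* (SD, n = 3), 3.09 ± 0.0915 of *Ifit2* and 1.00 ± 0.112 of *Ifit1*, and *Adar1* E861A held 13.2 ± 1.49, 4.04 ± 0.336 and 4.02 ± 0.139. On that scale *Ifit3* was the highest in both genotypes. The scale takes reads singly, whereas a paired read in a shared stretch can be placed by its mate. It may therefore overstate *Ifit3*. On both scales *Ifit1* was the lowest in *Adar1* WT and overlapped *Ifit2* in *Adar1* E861A. In absolute terms the mean gain was 8.16 CPM for *Ifit3*, 7.16 CPM for *Ifit1* and 3.42 CPM for *Ifit2*.

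Summed over the 3 genes, the level was 16.9 to 18.1 CPM in *Adar1* WT and 33.7 to 37.7 CPM in *Adar1* E861A. *Ifit2* gave 61.6% to 66.9% of these counts in *Adar1* WT and 39.3% to 41.6% in *Adar1* E861A. The share of *Ifit1* was 12.2% to 15.6% and then 24.6% to 29.4%, and that of *Ifit3* was 19.9% to 25.2% and then 31.3% to 35.0%. None of the 3 shares overlapped between the genotypes, but they are parts of the same sum and so are not separate observations. Lack of overlap is weak evidence with 3 against 3 libraries. How often such shares separate for other genes was not counted.

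Ratios within a library compare members without any scaling factor. The log2 ratio of *Ifit1* to *Ifit2* counts was -2.46, -2.22 and -2.05 in *Adar1* WT and -0.42, -0.71 and -0.71 in *Adar1* E861A, a difference of 1.63. The log2 ratio of *Ifit3* to *Ifit2* differed by 1.27, again without overlap. The log2 ratio of *Ifit1* to *Ifit3* differed by 0.36 and overlapped. Over the 5 ratios compared, including those to paralogs given later, exact two-sided permutation tests gave p = 0.1 for each of the first 2 (0.125 after Benjamini-Hochberg adjustment) and p = 0.3 for the last. This permutation test cannot give a p below 0.1 with 3 against 3 libraries.

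**Figure D3:**
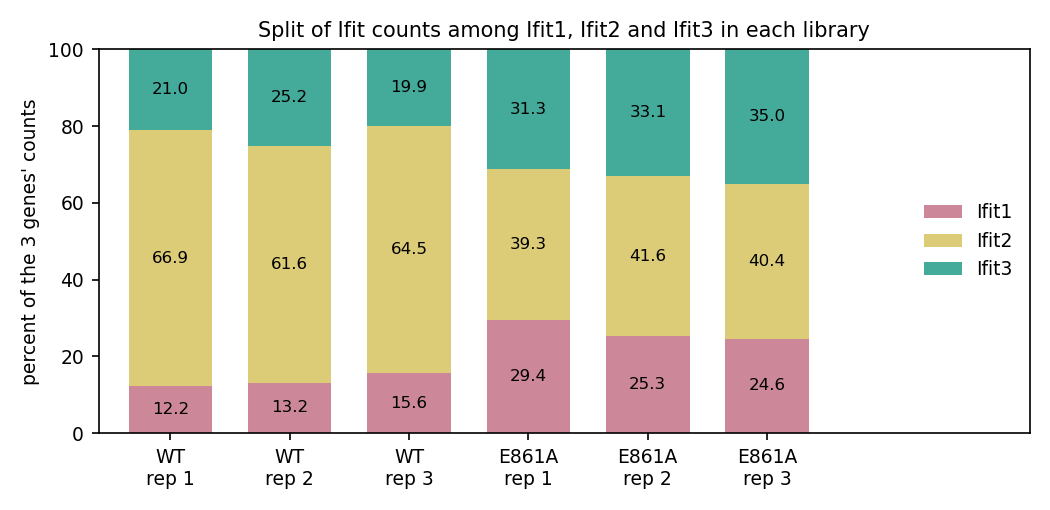
Percent of the summed *Ifit1*, *Ifit2* and *Ifit3* counts that came from each gene (vertical axis, stacked to 100) in each library. *Ifit2* takes 61.6% or more of every *Adar1* WT bar and 41.6% or less of every *Adar1* E861A bar.

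The coding sequences of the members were 60.5% (*Ifit1* and *Ifit2*), 63.6% (*Ifit1* and *Ifit3*) and 64.7% (*Ifit2* and *Ifit3*) identical over aligned bases. *Ifit3* and *Ifit3b* were 99.0% identical over 1211 aligned bases. Of the 75-base stretches in the exons of *Ifit3*, the length of 1 read, 43.0% occurred more than once in the genome, against 5.34% for *Ifit1* and 0.138% for *Ifit2*, and all 687 of those in *Ifit3* occurred in *Ifit3b*. The gene counts of the aligner used omit reads that map to more than 1 place, so the levels of *Ifit3* and *Ifit3b* are uncertain, whereas those of *Ifit1* and *Ifit2* are little exposed. *Ifit3b* had 158, 237 and 203 counts in *Adar1* E861A and 93, 112 and 94 in *Adar1* WT, without overlap. It rose by a log2 fold change of 1.26 ± 0.14 (SE; adjusted p = 0.000322). With the counts of *Ifit3* and *Ifit3b* summed, the log2 fold change was 1.496 (adjusted p = 1.1e-05). The log2 ratio of *Ifit3* to *Ifit3b* was 0.49 ± 0.14 (SD, n = 3) in *Adar1* WT and 0.89 ± 0.08 (SD, n = 3) in *Adar1* E861A, a difference of 0.39 (exact two-sided permutation p = 0.1).

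*Ifit1bl1* and *Ifit1bl2*, the other paralogs in the cluster, did not pass the test. *Ifit1bl1* had 67, 85 and 61 counts in *Adar1* E861A and 65, 86 and 94 in *Adar1* WT, and its log2 fold change was 0.06 ± 0.16 (SE) with a 95% interval from -0.29 to 0.40. *Ifit1bl2* had 54, 56 and 49 counts against 57, 58 and 63, too few for the CPM filter. In the filterByExpr set, its log2 fold change was 0.09 ± 0.18 (SE) with a 95% interval from -0.28 to 0.47. *Ifit1bl2* shares with *Ifit1* the 49 bases printed above, yet the log2 ratio of *Ifit1* to *Ifit1bl2* was 0.42, 0.65 and 0.58 in *Adar1* WT and 2.40, 2.61 and 2.35 in *Adar1* E861A (difference 1.91, exact two-sided permutation p = 0.1). *Ifit1*, *Ifit3* and *Ifit3b*, each with 2 matches to the ISRE core, were called. *Ifit1bl2*, with 2 at the start that faces *Ifit1*, and *Ifit1bl1* with 1 were not, at 49 to 94 counts per library. The other annotated start of *Ifit1bl2* held 0 matches, and which start was used in brain was not tested.

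Of the 5 genes that flank the cluster, 3 passed the filter, with log2 fold changes from 0.02 to 0.07. Of these 3, 0 were called in the quasi-likelihood test, the likelihood ratio test, DESeq2 or limma-voom, and 0 had an unadjusted p below 0.05. Over the 13649 genes tested, the shares in the quasi-likelihood test were 0.506% and 9.01%, so these counts do not set the 3 genes apart. *Lipa*, the lysosomal acid lipase gene next to *Ifit2*, was at 0.04 ± 0.07 (SE), and *Pank1*, a pantothenate kinase gene, was at 0.02 ± 0.06 (SE). *Kif20b*, tested only in the set kept by filterByExpr, was not called (0.21 ± 0.19, SE). *Ch25h*, which encodes cholesterol 25-hydroxylase and is itself interferon-inducible in myeloid cells, had at most 14 counts in any library.

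**Figure D4:**
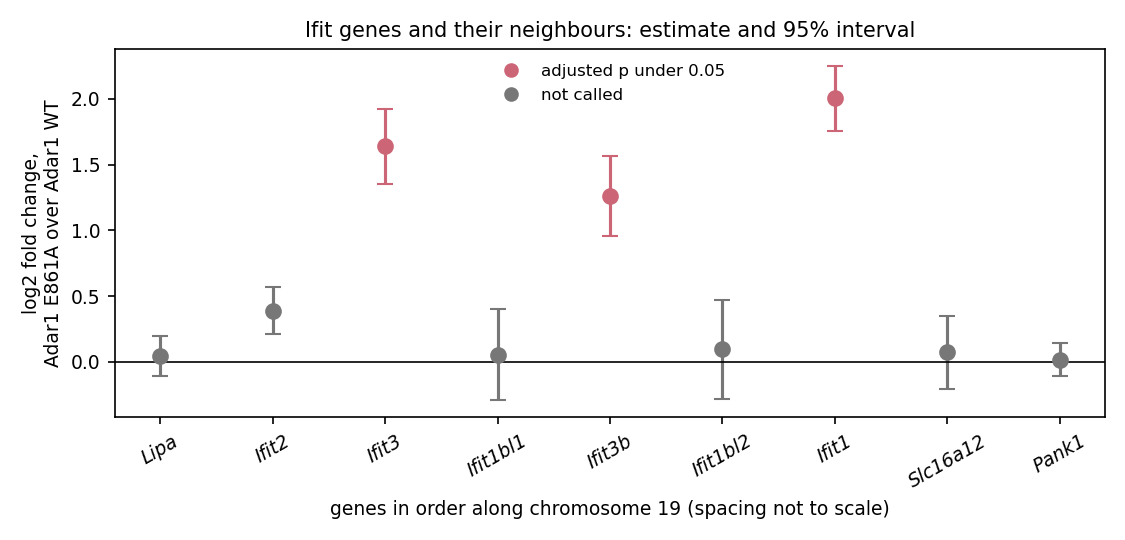
Log2 fold change (vertical axis, with 95% intervals) of the 6 Ifit genes and 3 neighbours in their order along the chromosome, with spacing not to scale. The value of *Ifit1bl2* comes from the filterByExpr set. *Ifit3*, *Ifit3b* and *Ifit1* stand between 1.26 and 2.00 and alternate with *Ifit1bl1* and *Ifit1bl2*, whose intervals span 0.

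Upstream of the Ifit genes, the interferon list held 13 genes. The ligand genes *Ifnb1*, *Ifna4* and *Ifng* had 0 counts in all 6 libraries and *Ifna2* had at most 2, so a difference in these ligand transcripts was not detectable at this depth. Of the 9 receptor, kinase and factor genes tested, 1 rose and 0 fell in the quasi-likelihood test. That gene, *Irf7*, was below 2 CPM in every *Adar1* WT library and passed the filter only through *Adar1* E861A, and with 2 CPM required in all 6 libraries 8 were tested and 0 called, although 3 of the 9 had an unadjusted p below 0.05. *Irf7*, the factor that amplifies interferon-α transcription, had 85, 120 and 103 counts against 69, 29 and 56. It rose by 1.26 ± 0.23 (log2, SE; adjusted p = 0.0225), a call lost without *Adar1* E861A replicate 3 (adjusted p = 0.322) or without *Adar1* WT replicate 3 (0.0824). The ISGF3 subunit genes *Stat2* and *Irf9* had log2 differences of 0.24 (adjusted p = 0.345) and 0.37 (adjusted p = 0.238), and *Irf9* was called under the replicate block (adjusted p = 0.0466). The receptor genes *Ifnar1* and *Ifnar2* were at -0.02 and 0.05. The median over the 9 genes was 0.19, beside -0.001 over all genes tested. Of all 13649 genes tested, 0.506% were called in the quasi-likelihood test and 9.01% had an unadjusted p below 0.05.

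RNA sensors and their adaptors act a step before interferon. That is an order of protein function. Whether a rise in their transcripts or in *Irf7* came before or after that of the Ifit genes was not tested. Of 9 genes listed, 7 passed the CPM filter and 1 was called, beside 0.506% of the 13649 genes tested. The called gene, *Ddx58*, encodes RIG-I, a sensor of 5′-triphosphate RNA. It had 257, 288 and 257 counts in *Adar1* E861A and 190, 212 and 190 in *Adar1* WT, and rose by 0.71 ± 0.10 (log2, SE; adjusted p = 0.00307). *Mavs*, the adaptor that RIG-I signals through, was at -0.02 ± 0.11 (SE). *Eif2ak2*, the double-stranded RNA kinase PKR, was at 0.36 (adjusted p = 0.264). *Ifih1* itself had 38 to 56 counts in each library although both genotypes carry its knockout allele, so the counts do not check the deletion. It was at 0.36 (adjusted p = 0.665) in the filterByExpr set.

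Of 10 genes that make, remove or read the RNA 5′ end or are translation factors bound by IFIT proteins, all 10 were tested and 0 were called in the quasi-likelihood test or by the other 3 tools, and 0 had an unadjusted p below 0.05. Over the 13649 genes tested, 0.506% were called in the quasi-likelihood test and 9.01% had an unadjusted p below 0.05. Counts of 0 among 10 genes therefore do not set this list apart. The log2 fold changes of the 10 genes ran from -0.07 to 0.12. *Cmtr1*, the cap methyltransferase whose product shields transcripts from IFIT1, was at -0.04 ± 0.09 (SE). *Cmtr2*, which methylates the next nucleotide, was at -0.05 ± 0.10 (SE). *Eif3c* and *Eif3e*, subunits of the initiation factor that IFIT1 and IFIT2 contact, were at -0.03 and 0.02, and *Dusp11*, which removes 5′ phosphates from triphosphate RNA, was at 0.12 (adjusted p = 0.595).

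Other ISGF3 target genes were listed with earlier results of these data known, so their direction is not independent of those results. Of 28 listed, 15 passed the CPM filter, and 10 of these rose and 0 fell, beside 0.410% of the 13649 genes tested that were called higher. Of the 15, 6 passed the filter only through *Adar1* E861A, the genotype in which they were high, so the count is a description. With 2 CPM required in all 6 libraries, 9 were tested and 4 called (*Gbp3*, *Ifitm3*, *Lgals3bp* and *Parp14*). *Usp18*, the ISG15 protease that restrains the interferon receptor, rose by 1.80 ± 0.20 (log2, SE; adjusted p = 0.000273). *Oasl2*, an oligoadenylate synthetase-like gene, had 184, 257 and 195 counts against 91, 69 and 66 and rose by 1.75 ± 0.14 (SE), and *Bst2*, which encodes tetherin, rose by 1.68 ± 0.19 (SE). *Ddx60* (1.68), *Rtp4* (1.54), *Gbp3* (1.42), *Rsad2* (1.31), *Lgals3bp* (0.97), *Ifitm3* (0.89) and *Parp14* (0.88) also rose. The 5 genes not called ranged from 0.04 to 0.42, among them *Cmpk2* (0.04 ± 0.07, SE), a nucleotide kinase gene commonly induced with its neighbour *Rsad2*. In the filterByExpr set, where 0.449% of 19366 genes were called higher, all 28 were tested and 19 were called higher. They included *Isg15*, which encodes a ubiquitin-like modifier (54, 78 and 54 counts against 33, 33 and 26; 1.26 ± 0.20, SE), and *Ifi44* (57, 101 and 102 counts against 20, 13 and 12; 2.78 ± 0.28, SE). Others had few counts in *Adar1* WT. *Oas3* had 1, 3 and 4, *Oas1a* 5, 7 and 1, *Ifi27l2a* 3, 3 and 3, and *Zbp1* 7, 1 and 6. Such genes were kept through *Adar1* E861A, where they were high, so the count of 19 is also a description. The log2 fold change of *Ifit1* (2.00) lay above those of the 10 called genes past the CPM filter and below those of 6 of the 19 called in the filterByExpr set (*Ifi27l2a*, *Ifi44*, *Mx1*, *Oas1a*, *Oas3* and *Zbp1*). That of *Ifit3* (1.64) lay within the range of the 10, and that of *Ifit2* (0.39) lay within the range of the 5 genes not called.

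**Figure D5:**
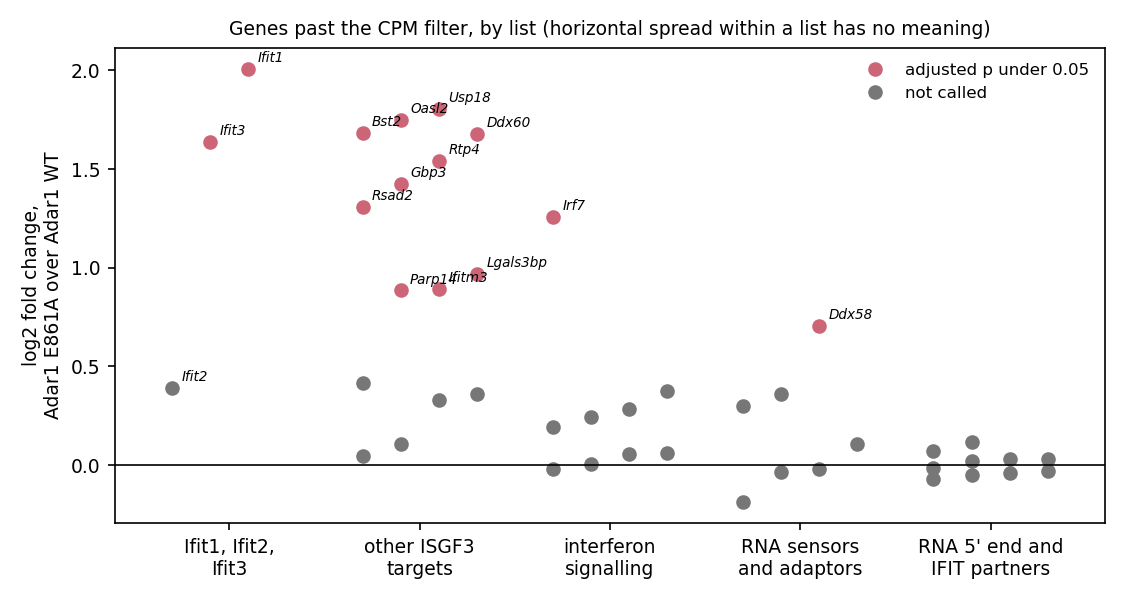
Log2 fold change (vertical axis) of *Ifit1*, *Ifit2* and *Ifit3* and of each gene past the CPM filter in the 4 lists, with called genes in red and named. Called genes lie from 0.88 to 1.80 among the other ISGF3 targets. Genes of the RNA 5′ end lie within -0.07 to 0.12.

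The 3 members varied together over the 6 libraries. Pearson's r of log2 CPM was 0.970 for *Ifit1* and *Ifit3*, 0.946 for *Ifit2* and *Ifit3* and 0.890 for *Ifit1* and *Ifit2*, values that include the difference between genotypes. Of 13645 other genes, those with the highest r to the mean log2 CPM of the 3 members were *Iigp1* (0.996), *Rsad2* (0.995), *Ppfibp2* (0.993), *Ifi27* (0.993) and *Mrps17* (0.992). *Iigp1*, an immunity-related GTPase gene, had 112, 165 and 132 counts in *Adar1* E861A and 36, 45 and 31 in *Adar1* WT and rose by 2.12 ± 0.17 (log2, SE; adjusted p = 1.27e-05), but it passed the filter only through *Adar1* E861A (mean 1.02 CPM in *Adar1* WT). *Ifi27* rose by 0.62 ± 0.08 (SE). *Ppfibp2* and *Mrps17* had a like pattern at log2 differences of 0.09 and 0.11 that were not called, so a high r here says nothing of size. With 6 libraries in 2 groups, these values are a description.

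Library and tissue checks gave the following values. Library totals were 26853488 to 36285305 counts in *Adar1* E861A and 35702138 to 38076753 in *Adar1* WT. *Adar* was present in all 6 libraries at overlapping levels (151 to 169 CPM in *Adar1* E861A and 116 to 172 CPM in *Adar1* WT, adjusted p = 0.822), and its count does not check the E861A allele. Neuron, astrocyte, oligodendrocyte, microglia, endothelium and choroid plexus markers were present in every library. Of the 28 tested markers, 0 were called in the quasi-likelihood test or limma-voom, 2 in the likelihood ratio test and 1 in DESeq2. The share of all genes tested that were called in the quasi-likelihood test was 0.506%. An unadjusted p below 0.05 was seen for 7 of the 28, beside 9.01% of the 13649 genes tested, of which 3 were the endothelial genes *Cldn5*, *Pecam1* and *Flt1*. Summed marker levels of *Adar1* E861A and *Adar1* WT did not overlap for microglia (133 to 144 against 146 to 149 CPM), endothelium (90.4 to 110 against 114 to 138), choroid plexus (218 to 326 against 385 to 405), neurons (3210 to 3269 against 3283 to 3301) and astrocytes (824 to 875 against 800 to 821). The summed level in *Adar1* E861A was the lower for the first 4 of these lists and the higher for astrocytes. How often such sums fail to overlap for other genes was not counted, and the part of these differences in the Ifit values was not tested. Leukocyte markers summed to 0.772 to 4.13 CPM against 0.394 to 0.952, with overlap, and 3 of the 5 were at 0 in at least 1 library.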

How the data were processed

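The authors trimmed reads with Trimmomatic 0.36 and aligned them to NCBIM37 (mm9) with STAR 2.5.2a (versions from the submitters' processing notes), took gene counts with its quantMode option from stranded Kapa libraries, and deposited raw counts per gene. The strand column counted is not given in the sources used here, so overlapping genes are uncertain. CPM tables and a table of the authors' own comparison were not used. CPM was computed from column totals. A gene was tested where all 3 libraries of a genotype reached 2 CPM, in R 4.3.3 with edgeR 4.0.16 (TMM, quasi-likelihood test, no covariates, Benjamini-Hochberg over 13649 genes). Alternatives comprised the likelihood ratio test, DESeq2 1.42.0, limma-voom (limma 3.58.1), other scaling and filters, a replicate block and omission of each library. The tests were checked on simulated counts with log2 changes of size 1 or 2, which does not cover a change as small as that of *Ifit2*. Deviations of same-numbered libraries correlated at 0.221, 0.329 and 0.112, and those of differently numbered libraries at -0.255 to 0.052. The numbers may therefore pair animals (source not stated). The reported fit has no block. The blocked value stands beside the results of *Ifit2* and *Irf9*, whose calls it changes, and is not given for *Herc6*, whose call it also changes. Named are the 3 members, called genes of the lists, some members not called, and the 5 genes most correlated with the members. 1 gene was left out of the interferon list and its counts and is not reported here. Members and lists were chosen with earlier results of these data known. Coordinates, promoters and coding sequences came from GENCODE vM1 on NCBIM37, and coding sequences were aligned with Biopython 1.88. Intervals of the fold cover the spread between animals.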

Additional observations from a re-analysis of the deposited data

How the results depend on the processing

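*Ifit1* and *Ifit3* kept their direction and their call under every alternative, with log2 fold changes from 1.92 to 2.08 and from 1.496 to 1.79. The widest values came from leaving out single libraries (1.92 to 2.08 and 1.55 to 1.79). The lowest for *Ifit3* came from summing it with *Ifit3b*, an alternative chosen after seeing the data. *Ifit2* kept its direction, and its call was gained under the likelihood ratio test (0.39, adjusted p = 0.00386), DESeq2 (0.39, 0.0439), no filter on low counts (0.38, 0.00153), filterByExpr (0.38, 0.0436), the replicate block (0.39, 0.0367) and without *Adar1* E861A replicate 1 (0.47, 0.0148). Leaving out single libraries gave 0.33 to 0.47. The cause of these gains was not tested.

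The number of genes called, 69 as reported, was 139 under the likelihood ratio test, 376 with no filter, 110 with filterByExpr, 42 where all 6 libraries had to reach 2 CPM, 158 with the replicate block, and 42 to 113 when single libraries were left out (113 without *Adar1* E861A replicate 2, 108 without *Adar1* WT replicate 2, 42 without *Adar1* E861A replicate 3). Other ISGF3 targets called higher, 10 as reported, numbered 21 with no filter, 19 with filterByExpr and 4 with the filter over all 6 libraries, in which more or fewer genes were tested, and 9 to 12 when single libraries were left out. The replicate block changed no call among the members and listed genes past the CPM filter other than those of *Ifit2*, *Irf9* and *Herc6*, which were gained.

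Among genes not called, direction turned without single libraries for *Ifit1bl1* (-0.0831 to 0.186), *Lipa* (-0.0192 to 0.0927), *Pank1* (-0.0031 to 0.0498), *Ifnar1* (-0.0595 to 0.0108), *Jak1* (-0.0073 to 0.0252, and -0.0030 with no filter), *Tyk2* (-0.0154 to 0.164) and *Mavs* (-0.137 to 0.0435). *Ifitm3* lost its call without *Adar1* E861A replicate 3 (adjusted p = 0.106). Of the genes called in the filterByExpr set, *Oas1a* (adjusted p = 0.0512), *Ifi27l2a* (0.0753) and *Mx1* (0.0804) also lost theirs without that library. *Oas3* kept its call in 4 of 8 alternatives, with an adjusted p of up to 0.240. With 26853488 to 38076753 counts per library, genes under 2 CPM such as *Ifit1bl2* are measured by few counts. The interferon ligand genes listed (*Ifnb1*, *Ifna2*, *Ifna4* and *Ifng*) had at most 2 counts, and other ligand genes were not looked up.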
